A study of Mus musculus with 3008 samples.

Results

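Of the 23725 genes in the deposited table of UMI counts (unique molecular identifiers, which mark single captured RNA molecules), 10 were followed here. They were 5 S100 genes (S100a4, S100a6, S100a10, S100a11 and S100a13) and 5 annexin genes (Anxa1, Anxa2, Anxa4, Anxa5 and Anxa6), chosen by name, and all 10 had a row in the table. The choice was made with earlier results of these data known. The cells were Foxp3+ regulatory T cells of male B6 Foxp3-Ires-Gfp mice, 7 months old, in which green fluorescent protein reports the transcription factor Foxp3. They came from 1 library of the spleen and 2 of the colon lamina propria, here colon 1 and colon 2, which held 20.5%, 20.6% and 58.9% of the 3008 cells. In both tissues live TCRb+ CD4+ GFP+ cells were sorted, after mechanical dissociation of spleen and enzymatic digestion of colon. The labels name no animal and no treatment. They name colon 2 as rep2 in the titles of its cells but as rep1b in their sample type, so whether the colon libraries came from separate mice is not known. Each library is therefore shown apart, no p-value was computed, and every interval below covers counting error only.

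S100 proteins are small calcium sensors of the EF-hand type that work mostly as dimers and alter the activity of their binding partners when calcium enters the cell. Annexins are cytosolic proteins that attach to negatively charged phospholipids in the presence of calcium, and they act in membrane traffic, membrane repair and the link between membrane and cytoskeleton. The families meet in defined complexes, of which annexin A2 with S100A10 and annexin A1 with S100A11 are the best known. In T cells, S100A4 and S100A6 are commonly read as genes of antigen-experienced and tissue-homing cells.

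In mm10 coordinates from GENCODE vM21, all 5 S100 genes lie on the forward strand of chromosome 3 inside a window of 3050 kb. S100a13 (chr3:90514435-90524581), S100a4 (chr3:90603771-90606045) and S100a6 (chr3:90612882-90624181) form the proximal group, and 6836 bases separate the end of S100a4 from the start of S100a6, a stretch that holds S100a5. In all 13 S100 genes are annotated from S100a13 to S100a10. S100a11 (chr3:93520488-93526287) and S100a10 (chr3:93555080-93564643) lie beyond a gap of 2896 kb, 28.8 kb from each other. Anxa5 (chr3:36448923-36475894) is on the reverse strand of the same chromosome. Anxa1 (chr19:20373428-20390944), Anxa2 (chr9:69453620-69491795), Anxa4 (chr6:86736840-86793584) and Anxa6 (chr11:54979108-55033445) are on chromosomes of their own. The annotated protein-coding model Gm42674 overlaps S100a4 on the same strand and has no row of its own in the table. Whether any of its reads were counted as S100a4 is not known.

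The bases upstream of the RefSeq start sites (GRCm38.p6) of S100a4 and S100a6, the S100 members that lie closest together and that varied together most between spleen cells, and of S100a11 and Anxa2, are given here 5′ to 3′ on the strand of the gene. Bases that GENCODE places inside the gene were left out. Capitals mark matches, on either strand, to the letters TGANTCA (AP-1), TGTGGT (RUNX), CCACCC (KLF), GGGCGG (SP) and CCAAT (NF-Y).
S100a4, chr3:90603520-90603769, forward strand: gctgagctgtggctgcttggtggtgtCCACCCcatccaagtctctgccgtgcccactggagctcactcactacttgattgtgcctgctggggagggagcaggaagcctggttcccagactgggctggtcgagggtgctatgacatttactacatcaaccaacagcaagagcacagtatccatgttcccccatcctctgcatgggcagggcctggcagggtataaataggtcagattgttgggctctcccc
S100a6, chr3:90612644-90612881, forward strand: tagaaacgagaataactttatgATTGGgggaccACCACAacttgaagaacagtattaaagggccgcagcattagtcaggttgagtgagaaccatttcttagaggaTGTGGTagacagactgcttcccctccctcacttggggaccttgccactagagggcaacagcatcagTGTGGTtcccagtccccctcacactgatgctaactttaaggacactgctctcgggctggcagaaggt
S100a11, chr3:93520246-93520487, forward strand: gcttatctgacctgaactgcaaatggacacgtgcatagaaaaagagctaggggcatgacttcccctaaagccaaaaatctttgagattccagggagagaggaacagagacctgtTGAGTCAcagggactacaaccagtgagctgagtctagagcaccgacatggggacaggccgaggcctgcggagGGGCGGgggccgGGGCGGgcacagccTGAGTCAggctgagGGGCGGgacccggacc
Anxa2, chr9:69453433-69453619, forward strand: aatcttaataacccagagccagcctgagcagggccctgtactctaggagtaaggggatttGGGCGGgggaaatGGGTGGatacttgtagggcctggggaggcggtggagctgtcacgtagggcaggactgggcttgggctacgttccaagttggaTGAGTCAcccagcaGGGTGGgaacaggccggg
The AP-1 letters stood at 2 places in the S100a11 sequence and at 1 in that of Anxa2, and 6.75% of all 32851 upstream windows of 250 bases held them. S100a6 carried the RUNX letters at 3 places, against 14.05% of windows with at least 1 match, and the NF-Y letters at 1, against 33.8%. S100a4 carried only the KLF letters, which 28.1% of windows held, and the SP letters of S100a11 and Anxa2 were held by 32.7%. The matches overlapped none of one another in these windows. No match to the CRE letters TGACGTCA or the STAT letters TTCNNNGAA was in the windows of the members, and 1.55% and 7.02% of all windows held those. RefSeq windows were matched for 8 of the 10 members, with S100a10 and Anxa6 the others, and a match of letters is a description only.

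The libraries were alike in UMIs per cell, with medians of 1847 for spleen, 1767 for colon 1 and 2026.5 for colon 2, and summed UMIs of 1255946, 1253246 and 3916649. Colon 2 was read less deeply, with a median of 21.02 mapped reads per UMI by the labels, against 46.5 for spleen and 50.7 for colon 1. Spleen shared 5 cell barcodes with colon 1 and 11 with colon 2, and the colon libraries shared 9. The sorted identity could be read in every library: Foxp3 itself stood at 281.9 counts per 1000000 UMIs (CPM) in spleen and at 452.4 and 306.1 in the colon libraries. Cells with UMIs of 2 or more markers of another cell type numbered 4, 19 and 52 in these libraries. Ribosomal protein genes took 28.5% of spleen UMIs but 17.6% and 16.3% of those of the colon libraries.

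Both colon libraries held more S100a4, S100a6 and S100a11 RNA than spleen, by 2.3- to 3.2-fold. Anxa2 was 2.2-fold higher in both, and Anxa1 was near the limit of detection in spleen. S100a10, S100a13 and Anxa5 differed by less than 2-fold in both colon libraries, and Anxa4 and Anxa6 passed 2-fold in 1 of the 2. No member was lower in both colon libraries. The values below are CPM of UMIs summed over a library, with 95% exact Poisson intervals, and folds carry 95% exact conditional binomial intervals. Since the oligo-dT method counts molecules from their 3′ ends without regard to length, each gene is compared with itself across libraries.

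S100a4, whose protein binds non-muscle myosin and is associated with cell motility, had 719.8 CPM in the spleen (673.6 to 768.3), against 2099.4 for colon 1 (2019.9 to 2181) and 1975 for colon 2 (1931 to 2019.7). Its colon libraries lay close together, and the fold over spleen was 2.92 (2.70 to 3.15) for the former and 2.74 (2.56 to 2.94) for the latter. S100a6, which encodes calcyclin, had 1177 CPM in the spleen, against 3741 for colon 1 and 2724 for colon 2. The fold was 3.18 (2.998 to 3.37) and 2.31 (2.19 to 2.45), and the 2 colon libraries differed from each other by more than counting error, colon 2 being at 0.728 of colon 1. S100a11, whose protein partners annexin A1, had 464.99 CPM in the spleen, against 1291 for colon 1 and 1224.5 for colon 2. Its folds of 2.78 (2.52 to 3.06) and 2.63 (2.42 to 2.87) were alike in both colon libraries.

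S100a10, also called p11, is the partner of annexin A2 and is unusual in the family in that it does not bind calcium. It was already at 1249 CPM in the spleen, against 1908 for colon 1 and 1649 for colon 2, and the folds of 1.53 (1.43 to 1.63) and 1.32 (1.25 to 1.40) were the smaller ones among the S100 genes that differed in both libraries. S100a13, which takes part in the export of proteins that lack a signal peptide, had 127.4 CPM in the spleen, against 184.3 for colon 1 and 135.6 for colon 2. Its fold was 1.45 (1.18 to 1.78) for colon 1, while its interval for colon 2, from 0.890- to 1.28-fold, included no difference.

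Among the annexins, Anxa2 had 75.6 CPM in the spleen (95 UMIs), against 167.6 for colon 1 and 163.7 for colon 2, a fold of 2.22 (1.73 to 2.85) and 2.16 (1.74 to 2.71). Anxa1, whose protein restrains inflammation through formyl peptide receptors, had 1 UMI in all spleen cells, against 15 for colon 1 and 34 for colon 2. The ratio to spleen was 15.03 with an interval from 2.31 to 632.8 for colon 1 and 10.9 (1.83 to 443.1) for colon 2, so that its size was not fixed by these counts. Anxa4 was also rare, with 16 UMIs in all spleen cells, against 36 for colon 1 and 94 for colon 2, and its fold was 2.25 (1.22 to 4.35) and 1.88 (1.10 to 3.43). Anxa5, whose protein binds phosphatidylserine and is used as a stain for dying cells, had 79.6 CPM in the spleen, against 145.2 for colon 1 and 129.96 for colon 2, with folds of 1.82 and 1.63. Anxa6, the annexin with a duplicated core, had 421.99 CPM in the spleen, against 644.7 for colon 1 and 963.8 for colon 2. Its fold was 1.53 (1.37 to 1.71) for colon 1 but 2.28 (2.08 to 2.51) for colon 2, which was 1.49 times the level of colon 1.

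**Figure D1:**
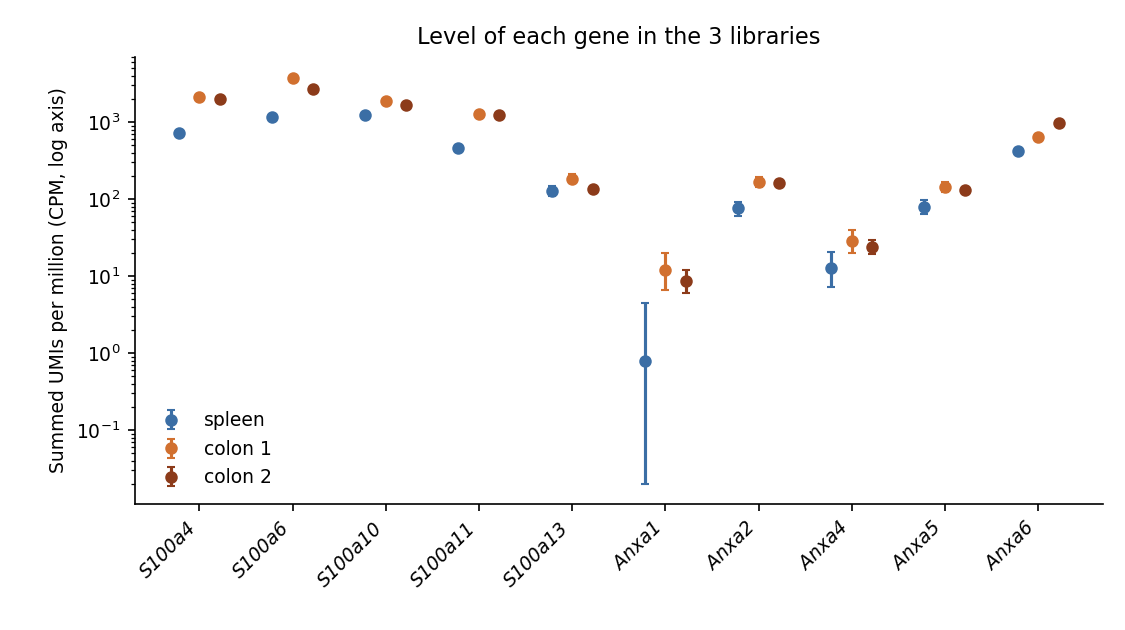
CPM of summed UMIs (log axis) of the 10 genes in spleen, colon 1 and colon 2; points are libraries and bars are 95% exact Poisson intervals. S100a4, S100a6 and S100a11 of both colon libraries lie well above spleen, and Anxa1 rests on 1 UMI in spleen.

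**Figure D2:**
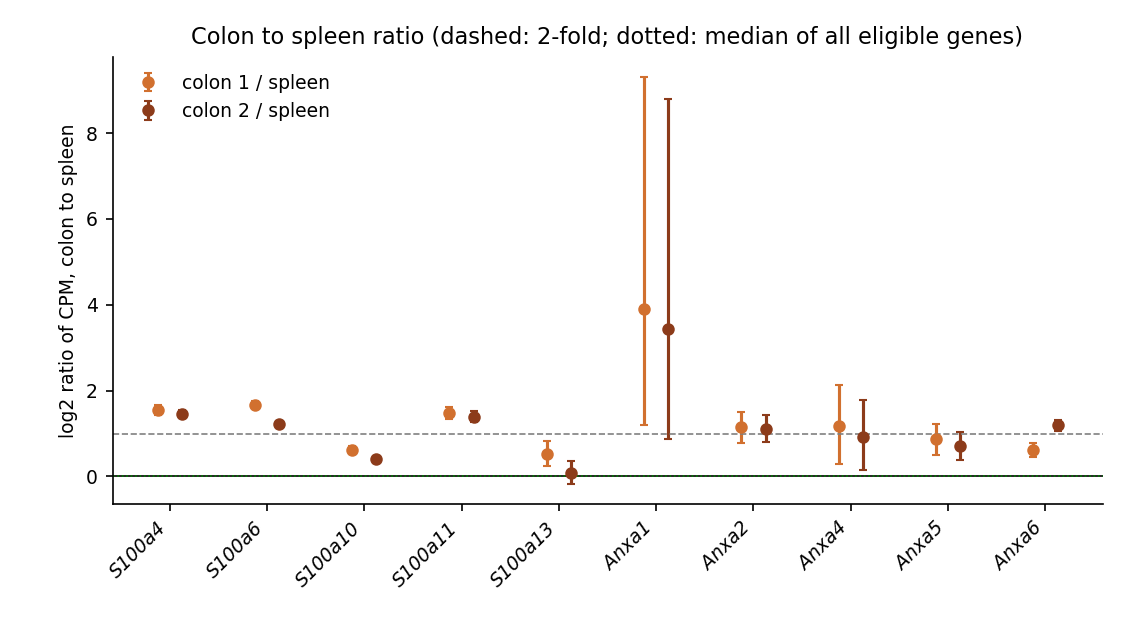
Log2 ratio of each colon library to the spleen library, with 95% exact binomial intervals; the dashed line is 2-fold and the dotted line the median of all eligible genes. Anxa6 and S100a6 are the genes whose colon libraries stand farthest apart beyond their intervals.

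By the rule of at least 2-fold in the same direction in both colon libraries, 5 of 10 members were higher and 0 lower. These were S100a4, S100a6, S100a11, Anxa1 and Anxa2. Among the 3482 genes with at least 50 CPM in spleen or in both colon libraries, 11.7% were higher and 4.45% lower by the same rule. Of the 8 members in that set, which leaves out Anxa1 and Anxa4, 4 were higher. All 10 members, among them the 8 of the eligible set, were above spleen in both colon libraries, against 44.1% of the eligible genes. For S100a13 in colon 2 this was by 1.06-fold, with an interval that included no difference. Its ratio turned to the other side, at -0.14 log2, when ribosomal protein genes were left out of the totals. With those totals the log2 median of all eligible genes moved from 0.02 to -0.20, the shares of eligible genes became 9.25% higher and 7.09% lower, and 3 members (S100a4, S100a11 and Anxa1) passed. The mean log2 ratios had a median of 1.44 over the S100 members and of 1.04 over the annexins, and both comparisons share the same spleen library. Without colon 1 the count was 6, with Anxa6 added, and without colon 2 it was 6, with Anxa4 added. In these settings 13.1% to 15.3% of eligible genes were higher.

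Members of both families outside the 10 were few. Anxa7, a further annexin, had 31.8 CPM in the spleen, against 102.9 for colon 1 and 90.6 for colon 2. Anxa11 stood at 45.4, 120.5 and 170.8 CPM, so both passed 2-fold in both colon libraries. S100a1 had 1 UMI in the spleen, against 12 for colon 1 and 52 for colon 2, and S100pbp, which is named for binding an S100 protein, had 6, 16 and 31. S100a8 and S100a9, the S100 genes that dominate neutrophils, had 0 UMIs in all 3 libraries, as did S100a7a, S100a14, S100a16 and S100g. By the one-sided limit, these 0 counts allow up to 3 UMIs a library.

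Of 5 measured genes for partners and receptors of the families, 1 was higher in both colon libraries and 0 lower. This was Ahnak, the giant scaffold protein bound by the annexin A2 and S100A10 complex, at 260.4 CPM in the spleen, against 618.4 for colon 1 and 906.6 for colon 2. Cacybp, which encodes the calcyclin-binding protein, stood at 36.6, 31.9 and 45.5 CPM. Of 15 other genes for calcium-binding proteins, 1 was higher (Pef1, at 29.5, 65.4 and 69.2 CPM) and 0 lower, and of 8 genes of membrane repair 0 passed in either direction. The list of adhesion and cytoskeleton genes had 8 of 15 higher and 1 lower. Vim, the intermediate filament of motile cells, stood at 458.6, 1761 and 2676 CPM, while Itgb1, the beta 1 integrin, was the lower one, at 348.7, 50.3 and 67.7 CPM.

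Other lists moved with tissue beside the members. Genes of resting lymphoid cells were lower in both colon libraries for 8 of 12, such as Id3, an inhibitor of helix-loop-helix transcription factors, at 156.9, 8.78 and 14.3 CPM, and higher for 1. Genes of activated effector cells were higher for 9 of 12, such as Icos at 296.99, 2445 and 3716 CPM. Of the genes tied to the Gata3 and ST2 programme, 5 of 8 were higher and 1 lower. Genes known to respond to tissue dissociation were higher for 8 of 19 and lower for 1, with Fosb at 17.5, 392.6 and 427.7 CPM, and tissue and digestion cannot be told apart in this design. Within libraries the dissociation genes found in at least 5% of cells had correlations with the summed S100 UMIs of a cell from -0.05 to 0.13 in spleen, and from -0.07 to 0.10 and -0.07 to 0.09 in the colon libraries. Of 10 myeloid markers, 8 were at 0 in spleen, but 2 and 1 in the colon libraries, and their summed level was 112.3, 243.4 and 241.8 CPM. Markers of granulocytes and mast cells summed to 53.3, 64.6 and 42.6 CPM, with 6 of 8 at 0 in each library, and markers of epithelium to 58.9, 37.5 and 65.1 CPM. Plasma cell markers summed to 63.7, 126.1 and 175.4 CPM, with 2, 1 and 2 of 5 at 0. Markers of CD8 T and NK cells summed to 83.6, 134.9 and 113.1 CPM, with 2, 4 and 0 of 8 at 0. B cell markers summed to 64.5, 69.4 and 106.98 CPM, with 1 of 8 at 0 in each library, and 2 of the 3 with enough UMIs passed the 2-fold rule upward. Without the cells that held 2 markers of another type, Anxa4 also passed, a gene outside the eligible set with 16 UMIs in all spleen cells.

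The spread between cells was read after each cell was thinned at random to 1000 UMIs, which left out 4 spleen, 9 colon 1 and 28 colon 2 cells that had fewer. S100a4 and S100a6 were among the most unevenly held genes of the spleen library. The Fano factor, the variance of the UMIs per cell over their mean, is 1 where only Poisson counting separates cells. It was 4.68 for S100a6 and 4.55 for S100a4 in spleen, ranks 4 and 6 of the 3065 genes with a thinned mean of at least 0.05, whereas by mean these genes lay 4.44% and 5.97% of the way down the list. The genes ranked above S100a4 besides S100a6 were Egr2, Ccl5, Igfbp4 and Penk, each with a mean below 0.13 UMIs. S100a13 was at the other end, with a Fano factor of 0.973 and rank 3022.

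S100a10 (2.13), S100a11 (2.11) and Anxa6 (2.05) lay between these, as did Anxa5 at 2.66 and Anxa2 at 1.59. Anxa1 and Anxa4 were below the minimum mean. At or above a Fano factor of 1.5 stood 7 of the 8 members with enough UMIs in spleen, against 62% of all genes, 7 of 8 in colon 1 against 68%, and 6 of 8 in colon 2 against 52.5%. The count alone therefore stood near the background. The ranks of S100a4 and S100a6 are given as a description, since the members were chosen with earlier results of these data known. In colon the Fano factor of S100a4 was 3.05 and 2.56, and that of S100a6 was 5.74 and 3.71. At a depth of 500 UMIs the spleen values were 2.61 for S100a4 and 3.03 for S100a6.

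**Figure D3:**
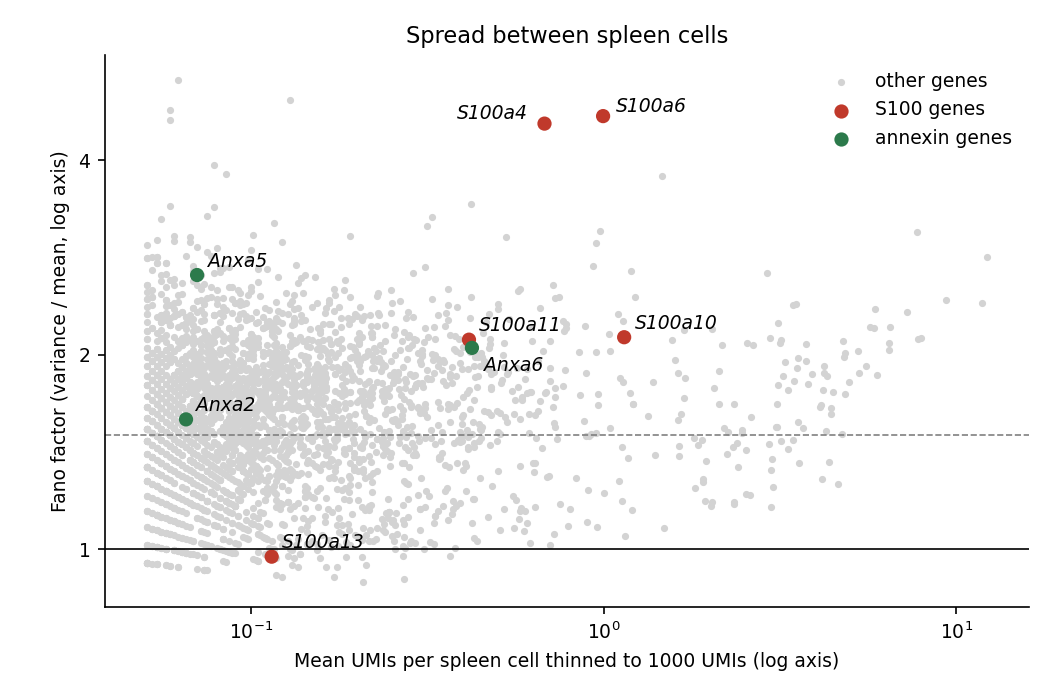
Fano factor against the mean of thinned UMIs over spleen cells (both log axes), for the 3065 genes above the minimum mean; red points are S100 genes, green points annexin genes, the solid line is the Poisson value of 1 and the dashed line 1.5. S100a4 and S100a6 stand above the genes of like mean, and S100a13 lies at the Poisson value.

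The unevenness had the form of many spleen cells without a UMI and a minority with several. In spleen 78.96% of cells had no S100a4 UMI, where a Poisson draw with the same mean would leave 50.7%, and 4.89% had at least 5. The top 10% of spleen cells held 78.1% of S100a4 UMIs and 67.4% of S100a6 UMIs. For S100a13 the share of cells at 0 was 89.1%, against 89.2% by Poisson.

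The share of cells with an S100a4 UMI was 21.04% in spleen (Clopper-Pearson 95% interval 17.9 to 24.5), 64.3% in colon 1 (60.3 to 68.1) and 65.5% in colon 2 (63.3 to 67.8). Among the cells that had any, spleen averaged 3.22 UMIs, colon 1 averaged 3.09 and colon 2 averaged 2.96. The tissues thus differed in how many cells gave an S100a4 UMI, and hardly in how many UMIs such a cell gave. For S100a6 both parts differed: the share was 27.4%, 68.5% and 67.5%, and the mean in holding cells 3.63, 5.02 and 3.94 UMIs. Both parts also differed for S100a11, with a share of 23.7%, 54.6% and 56.3% and a mean of 1.75, 2.38 and 2.15 UMIs.

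S100a10 was the most widely detected S100 gene in spleen, in 53.02% of cells, against 71.6% and 71.8% in colon. S100a13 was found in 10.9%, 14.3% and 11.6%, with overlapping intervals. Anxa6 was found in 26.6% of spleen cells, 38.5% of colon 1 cells and 48.5% of colon 2 cells. The other annexins were sparse: Anxa2 in 5.06%, 10.8% and 12.6%, Anxa5 in 4.08%, 8.69% and 8.49%, Anxa4 in 0.816%, 1.48% and 2.18%. Anxa1 was in 0 of the thinned spleen cells, which allows up to 0.600% by the two-sided exact interval, and in 0.984% and 0.516% of colon cells. Without thinning S100a4 was found in 25.1%, 72.2% and 75.96% of cells. No cell type that should lack these genes was sorted, so the share that free RNA gives was not measured.

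**Figure D4:**
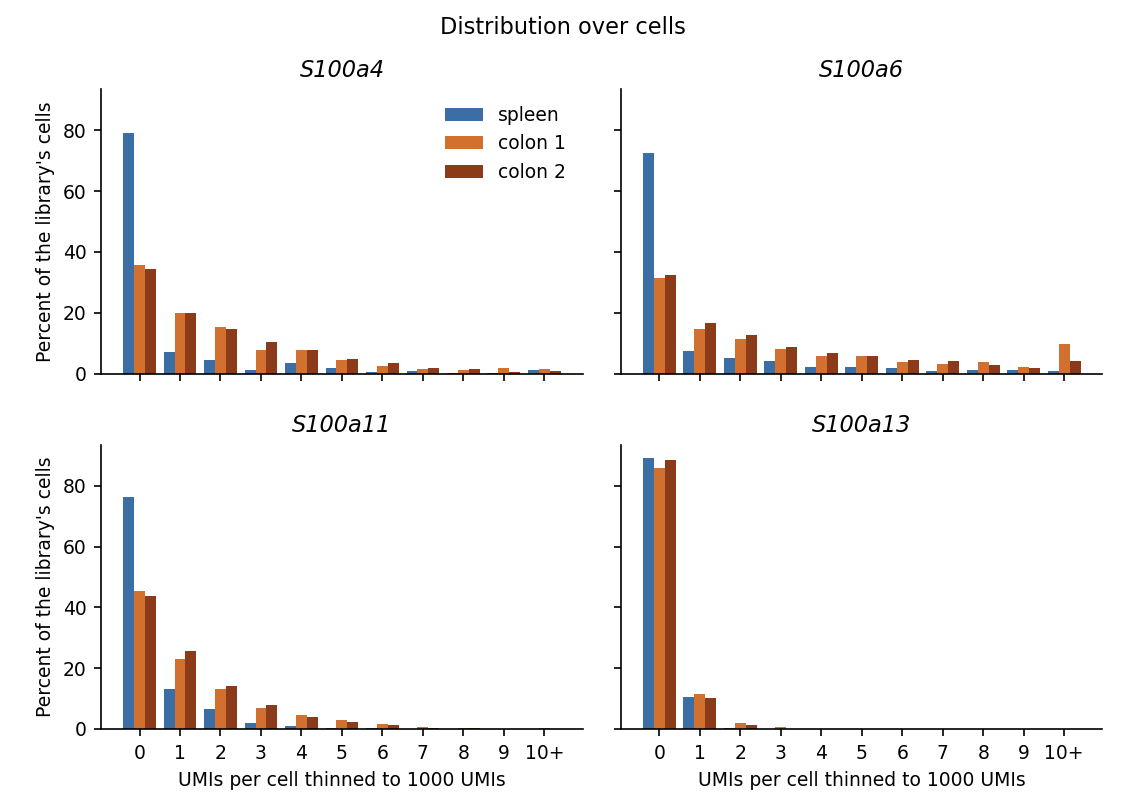
Percent of cells of each library with 0 to 9, or 10 or more, UMIs of S100a4, S100a6, S100a11 and S100a13 after thinning to 1000 UMIs per cell. Spleen cells pile up at 0 for S100a4 and S100a6 with a tail of cells that reach the colon values, while the 3 libraries lie closer together for S100a13.

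Summed over the 5 S100 members, a spleen cell held a median of 1 UMI (quartiles 0 and 4, highest 28), a colon 1 cell 7 (3 and 13, highest 53) and a colon 2 cell 6 (3 and 11, highest 39). No S100 UMI was found in 33.1% of spleen cells, 6.72% of colon 1 cells and 6.14% of colon 2 cells. The distributions overlapped: 17.8% of spleen cells were at or above the median of colon 1, and 13.9% of colon 1 cells and 13.02% of colon 2 cells were at or below that of spleen.

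Between spleen cells the S100 genes varied together, 4 of the 5 most clearly. The Pearson correlation of log2(thinned UMIs + 1) over these cells, which share library and depth, was 0.56 for S100a4 with S100a6. It was 0.45 for S100a6 with S100a11, 0.42 for S100a4 with S100a10, 0.41 for S100a6 with S100a10, 0.38 for S100a4 with S100a11 and 0.30 for S100a10 with S100a11. S100a13 had lower values, at 0.17 with S100a4, 0.20 with S100a6, 0.10 with S100a10 and 0.14 with S100a11. Its thinned mean was only 0.114 UMIs, so these low values do not show that it varied apart. It was found in 22.6% (16.5 to 29.7) of spleen cells with an S100a6 UMI, against 6.52% (4.41 to 9.23) of those without. Split by S100a10 or by S100a11, the like intervals overlapped. Of the spleen cells with an S100a4 UMI, 68.99% also had S100a6 (60.3 to 76.8), against 16.3% of those without S100a4 (13.1 to 19.9). In the colon libraries S100a4 with S100a6 gave 0.42 in each. S100a4 and S100a6, whose upstream sequences stand above, are the closest of the 5 members on chromosome 3, with S100a5 between them. S100a10 and Anxa2, which encode the subunits of 1 complex, had low correlations of 0.13, 0.16 and 0.13 in the 3 libraries. Anxa2 was found in 13.7% (10.6 to 17.3) of colon 1 cells with an S100a10 UMI and in 3.47% (1.28 to 7.40) of those without, and in colon 2 in 14.5% (12.6 to 16.6) and 7.74% (5.53 to 10.5). In spleen the intervals overlapped, at 6.77% (4.29 to 10.1) and 3.13% (1.44 to 5.85).

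The genes most like the summed S100 UMIs across spleen cells, among 2176 found in at least 5% of cells, were Lgals1 (0.40), Crip1 (0.35), Glrx (0.33), Serinc3 (0.31), Arpc1b (0.30), Itgb1 (0.29), Srgn (0.28) and Klrg1 (0.28). Lgals1 encodes galectin-1 and Klrg1 an inhibitory receptor of differentiated T cells. In colon the leading genes were Vim (0.41 in colon 1 and 0.45 in colon 2), Tmsb4x (0.39 and 0.41), Crip1 (0.37 and 0.28), Lgals1 (0.33 and 0.30), Itm2b (0.30 and 0.29), Actb (0.28 and 0.28), Lmna (0.25 and 0.25) and Gzmb (0.24 and 0.27). Ccr7, the receptor that guides T cells into lymph nodes, was the lowest in both, at -0.43 and -0.32. Itgb1 followed the S100 sum within spleen although its own level was 6.94 and 5.15 times lower in the colon libraries. Lgals1 differed between the tissues in the same direction as the S100 genes, at 424.4 CPM in the spleen, against 1342.9 for colon 1 and 1108.4 for colon 2.

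To set the members beside cell states that they did not define, all 3008 cells were clustered with every S100 and annexin gene left out. Of the spleen cells, 98.2% fell in joint cluster 0, with Id3 and Evl among its leading genes, together with 37 colon cells. In colon the largest was cluster 1, led by Angptl2, Igfbp7 and Csf1, with 38.6% of colon 1 and 40.9% of colon 2 cells. Cluster 3, led by Penk, Il1rl1 and Dgat2, held 31.5% and 32.6%, and cluster 6, led by Ccr7, Hey1 and Tbc1d4, held 13.1% and 12.3%. S100a6 stood at 642.3 CPM in cluster 6 of colon 1 (523.7 to 779.7) and at 991.6 in that of colon 2 (906.05 to 1082.99), both below the spleen library's 1177. In cluster 1 it stood at 5130 and 3529 CPM, and in cluster 3 at 2953 and 2405. S100a4 had the same order, with 869.03 and 826.98 CPM in cluster 6, 1740.7 and 1508.8 in cluster 3 and 2778 and 2622 in cluster 1. Unlike S100a6, S100a4 in cluster 6 was above the spleen library's 719.8 CPM, but with overlapping intervals. Cluster 2, led by the stress genes Hspa1a, Hspa1b and Fosb, stood at 2745 and 2814 CPM of S100a4, next to cluster 1.

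Since the joint clusters did not divide the spleen, its cells were also clustered alone with the same settings, a choice made after that result was seen. Of 5 spleen clusters, S0 to S4, the one called S2 held 25.3% of spleen cells and was led by Gzmb, Ccr2 and Glrx. In S2 S100a4 stood at 1856 CPM (1713 to 2009), S100a6 at 2768 (2592 to 2953), S100a10 at 2318 and S100a11 at 824.1. The colon libraries as a whole had 2099.4 and 1975 CPM of S100a4 and 3741 and 2724 of S100a6. In S0, with 15.1% of cells and led by Rasa2 and Ly6c2, S100a4 stood at 68.3 CPM (34.1 to 122.2) and S100a6 at 18.6 (3.84 to 54.4, from 3 UMIs). This lowest level depended on the clustering: at a Leiden resolution of 0.5 the cells of low S100a6 formed 1 cluster, with 51.7% of spleen cells and 150.2 CPM, and a cluster of 9 cells had 96.6. At a resolution of 1.2 the lowest cluster had 67.5 CPM of S100a6 and 19.3 of S100a4. In S1, with 27.7% of cells and led by Igfbp4, they stood at 66.5 and 160.3 CPM. S3, led by Coro2a, and S4, led by Il10, Penk and Egr2, lay between, with 429.7 and 655.9 CPM of S100a4 and 802.6 and 1311.7 of S100a6. None of these clusters was given a cell type name.

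The other members were less divided between the spleen clusters. S100a10 was lowest in S1, at 562.4 CPM, and S100a11 likewise, at 130.03. S100a13 ranged from 60.5 CPM in S1 (36.9 to 93.4) to 190.2 in S2 (146.1 to 243.3). Anxa6 ranged from 243.2 CPM in S3 to 667.1 in S2, and Anxa2 from 18.1 in S1 to 147.9 in S2. Cells within S2 still differed: the Fano factor of S100a4 was 4.05, and 50.6% of thinned S2 cells had a UMI of it. In S1 the Fano factor of S100a4 was 4.10, but only 4.68% of thinned cells had a UMI. Its mean there was 0.099 UMIs and the highest cell had 7. The median depth was 1621 UMIs in S0 and 1920 in S2.

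**Figure D5:**
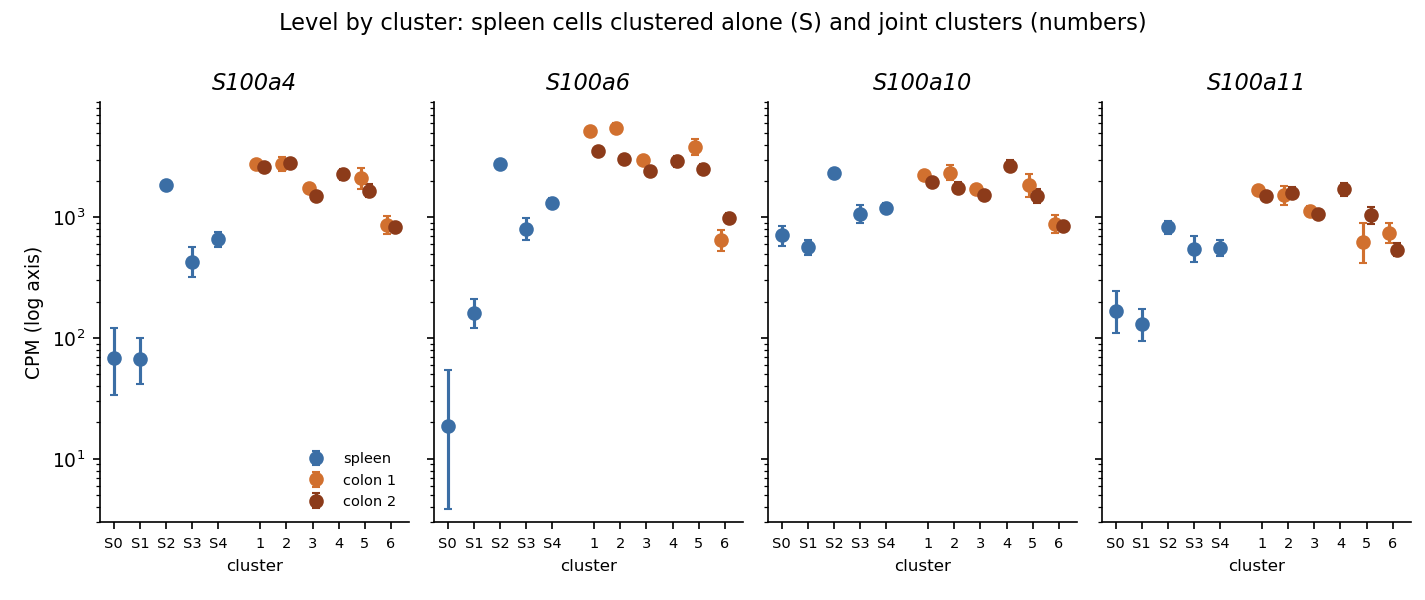
CPM (log axis, 95% exact Poisson intervals) of S100a4, S100a6, S100a10 and S100a11 in the 5 clusters of spleen cells clustered alone (S0 to S4) and in joint clusters 1 to 6 of colon 1 and colon 2, for clusters with at least 20 cells of the library. Spleen cluster S2 lies among the colon clusters for S100a4 and S100a6, while S0 and S1 lie far below, and cluster 6 is low in colon.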

How the data were processed

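Regulatory T cells of spleen and colon were read by inDrops, which barcodes cells in droplets. The deposited values are counts of UMIs per gene and cell, and per the submitters' processing notes TopHat2, SAMtools and the mm10 build were used; their versions and settings, the annotation and how cells were picked are not given there. All columns were matched to labelled cells and 0 were left out. Counts were summed per library and scaled to 1000000 UMIs with Python 3.11.15 (numpy 2.4.6, scipy 1.17.1 and pandas 2.3.3); intervals are 95% exact Poisson, conditional binomial or Clopper-Pearson and cover counting error only. The libraries held 617 spleen, 619 colon 1 and 1772 colon 2 cells. Cells were thinned without replacement to 1000 UMIs, which kept 613, 610 and 1744. Clusters came from scanpy 1.11.5 (counts scaled to 10000, log1p, 2000 variable genes, 20 components, 15 neighbours, Leiden resolution 0.8). No doublet caller was run; cells over 2 times the median UMIs (28, 35 and 80) were left out in an alternative. TMM factors came from edgeR 4.0.16. The ratio, thinning and Fano steps were checked on simulated data.

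The members and lists were chosen with earlier results of these data known. Named were every member, other S100 and annexin genes with at least 30 UMIs, up to 4 genes a list by size of the mean log2 ratio, and the 8 genes most alike; Cacybp was among them by that rule. Foxp3, the leading genes of clusters, genes ranked by Fano factor and the S100 genes at 0 UMIs were named for their values.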

Additional observations from a re-analysis of the deposited data

How the results depend on the processing

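With 1 spleen library and no animal named, nothing here measures the spread between mice, and depth limits Anxa1 and Anxa4. No paired analysis was possible because the replicate numbers of the labels only number cells and no test was made. Of the values recomputed under an alternative 65.9% stayed within a set tolerance and 33.9% moved beyond it. The tolerance was the counting interval for ratios, cluster levels and shares of cells, and a fixed limit for the rest. Among the log2 ratios of single members to spleen only 1 changed sign: S100a13 in colon 2, at -0.14 with totals without ribosomal protein genes. The median of all eligible genes also turned negative with these totals. With those totals 3 members were at least 2-fold higher, 7.09% of eligible genes were lower, and the medians were 1.22 for S100 members, 0.83 for annexins and -0.20 for all eligible genes. With each cell weighted alike the S100 median was 1.54. The annexin median was 1.17 without cells holding 2 markers of another type and 1.52 without cells over 2 times the median UMIs. Leaving out colon 1 or colon 2 gave an S100 median of 1.21 to 1.47, an annexin median of 1.11 to 1.15, 13.1% to 15.3% of eligible genes higher and 6.67% to 7.36% lower. At 1.5-fold 8 members, 19.5% of eligible genes higher and 11.98% lower passed, and at 4-fold 1 member, 4.82% and 0.689%. With no filter on low values 7.74% were higher and 9.56% lower. A count of 0 was set to 3 UMIs, which alone can put rare genes on the lower side. S100a2, with 0, 1 and 1 UMIs in spleen, colon 1 and colon 2, was counted as lower. The 9.56% is therefore not read as a share of genes lower in colon. At Leiden resolutions of 0.5 and 1.2 the highest S100a6 level of a spleen cluster was 2213 and 3797 CPM.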

Other observations

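The summed annexin UMIs of a cell had weaker companions than the S100 sum. In spleen the genes most alike were Crip1 (0.22), Vim (0.19), Lgals1 (0.17), Cfl1 (0.17) and Adgre5 (0.16), in colon 1 Tmsb4x (0.22) and Vim (0.18), and in colon 2 Vim (0.20) and Tmsb4x (0.17). Crip1, Vim, Lgals1 and Tmsb4x stood in both the S100 and the annexin rankings of both colon libraries. These values are low for counts this sparse and are given as a description.

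At the other end, Satb1, a chromatin organiser of resting T cells, had -0.21 in colon 1 and -0.27 in colon 2 with the S100 sum, and Lrrc32, which encodes the latent TGF-beta receptor GARP, had -0.18 and -0.24. Ccr7 had 135.4 CPM in the spleen, against 244.2 for colon 1 and 258.6 for colon 2, so the gene lowest in the S100 ranking within colon was itself higher in the colon libraries than in spleen.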
